A study of Mus musculus with 16 samples.

Results

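The Pax genes are described here through every probe set of the array whose annotated gene symbol was Pax1, Pax2, Pax3, Pax5, Pax6, Pax7, Pax8 or Pax9. The genes were chosen with earlier results of these data known, but the choice of their probe sets used no measured value. It gave 19 probe sets for 7 of the 8 genes, out of 45037 probe sets in the value table. They were 5 for Pax6, 3 each for Pax3 and Pax9, and 2 each for Pax1, Pax5, Pax7 and Pax8. No probe set in the annotation used here named Pax2, so Pax2 is not analysed here.

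Pax proteins are transcription factors that bind DNA through a paired domain, and each is switched on early in a limited set of embryonic tissues. Pax3 and Pax7 mark the dorsal neural tube, the neural crest and the dermomyotome, from which trunk muscle arises, and mice without Pax3 (Splotch) fail to close the neural tube. Pax6 patterns the eye, forebrain and ventral neural tube. Pax1 and Pax9 act in the sclerotome, which gives vertebrae, and in the pharyngeal pouches, and Pax2, Pax5 and Pax8 act at the midbrain-hindbrain boundary, in the ear and in the kidney.

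Total RNA of 16 single female mouse embryos was measured, 1 embryo per Affymetrix array, in 4 groups of 4. Embryos had 11 to 14 somites, a stage at which the cranial neural tube is still open, and were freed of their extraembryonic membranes. The groups were wild type BALB/cCrl, BALB/cCrl homozygous for the gene trap allele Cecr2Gt45Bic, wild type FVB/N, and FVB/N homozygous for the same allele (each shortened here to BALB wild type, BALB mutant, FVB wild type and FVB mutant). Cecr2 encodes a chromatin remodelling factor, and mice that lack it often fail to close the neural tube over the brain (exencephaly), with a frequency that depends on the strain. The allele had been crossed into each strain for over 10 generations. Heterozygous parents gave the BALB mutants and homozygous parents the FVB mutants. The allele and the cross or colony therefore cannot be told apart within FVB/N. Strain and parental genotype likewise cannot be told apart between the mutants of the strains, or in a difference of allele effects between strains. The deposited descriptions of the BALB wild types carry the prefix of the gene trap colony, those of the FVB wild types do not. Each embryo's own somite number, litter and phenotype are not given in the sources used here. Arrays were numbered by group, so any effect of array order and the groups cannot be told apart.

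Values are log2 levels, so a difference of 1 is a doubling. The trapped gene bore out the labels: Cecr2 probe set 1457039_at stood at 8.31 ± 0.24 (SD, n = 4) in BALB wild types and 5.95 ± 0.06 (n = 4) in BALB mutants, and at 8.24 ± 0.18 (n = 4) in FVB wild types and 6.24 ± 0.11 (n = 4) in FVB mutants. FVB mutants 3 and 4 stood apart from the other arrays, at -24.0 and -24.7 on the second principal component of all probe sets, where the other 14 arrays lay between -9.65 and 13.9. Called results that use them, and those that move most without them, are given both ways. The mean of 4 of 4 visceral endoderm and yolk sac markers (Afp, Ttr, Apoa1 and Apob) varied widely between arrays. It ran from 9.65 in FVB mutant 3 to 12.4 in BALB mutant 2, with 11.9 in FVB mutant 4. None of these markers was called in any comparison. In these female embryos, 13 probe sets of 6 Y-linked genes read between 3.03 and 7.28, or up to 6.24 without an Sry probe set, which gives a rough range for probe sets with no transcript. Brightness differs between probes, so this range is a guide and no detection test. All 3 Pax3 probe sets and Pax6 probe sets 1419271_at and 1452526_a_at read above 7.28 on all 16 arrays. Pax7 1444596_at did so on 2 arrays and Pax8 1418208_at on 3, and the other 12 Pax probe sets, among them both of Pax1, both of Pax5 and all of Pax9, did so on none. The cut of 7.28 rests on the Sry probe set. Pax7 1444596_at (lowest array 6.73), Pax8 1418208_at (6.65) and Pax9 1421247_at (6.36) read above 6.24 on all 16 arrays.

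Across the family, 2 Pax genes passed the test in some comparison. Pax3 was lower in FVB mutants than in FVB wild types and higher in BALB mutants than in FVB mutants, each at the same 1 of its 3 probe sets. Pax7 was higher in BALB mutants than in FVB mutants at 1 of its 2 probe sets. No Pax probe set passed between BALB mutants and BALB wild types. The test was a linear model fitted with limma to all 45037 probe sets, and a probe set was called at a Benjamini-Hochberg adjusted p under 0.05. Between BALB mutants and BALB wild types 0 of 19 Pax probe sets were called, against 0.02% of all probe sets, and 2 of 19 had an unadjusted p under 0.05, against 9.54%. Between FVB mutants and FVB wild types 1 of 19 was called, against 0.595%, and it was lower in the mutants, against 0.42% called lower. In that comparison 7 of 19 had an unadjusted p under 0.05, against 12.1%. Of those 7, 5 were lower and 2 higher in the mutants, a split that was not counted over all probe sets. Whatever the p, 12 of 19 Pax probe sets lay below 0, against 46.4% of all. The 5 lower include all 3 Pax3 probe sets, and probe sets of 1 gene are not independent readings. Between the wild types of the strains 0 of 19 were called, against 6.74%, with 4 of 19 at an unadjusted p under 0.05, against 18.4%. Between the mutants of the strains 2 of 19 were called, against 10.8%, both higher in BALB/cCrl, against 4.89% called higher, with 6 of 19 at an unadjusted p under 0.05, against 22.6%. The interaction, which asks whether the allele's effect differs between strains, called 0 of 19 against 0.0755%, and 5 of 19 had an unadjusted p under 0.05 against 7.92%. The mean of both allele effects called 0 of 19 against 0.455%, with 8 of 19 at an unadjusted p under 0.05 against 13.7%. With so few probe sets, counts of 0 to 2 called say little about the family beyond the genes themselves. The median Pax difference between mutant and wild type was -0.05 in BALB/cCrl and -0.13 in FVB/N, where the medians over all probe sets were 0.0051 and 0.0097. These comparisons share groups, so they are not independent of each other.

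**Figure D1:**
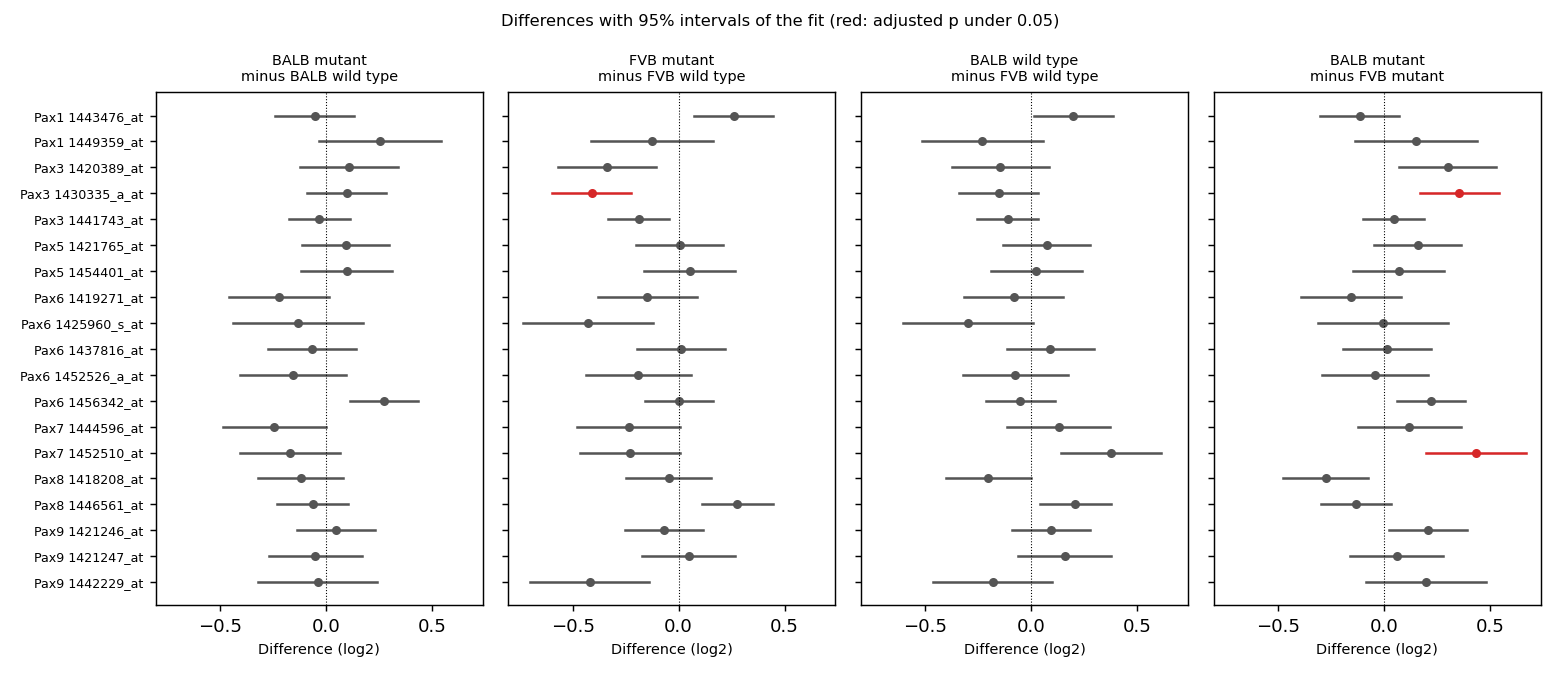
Log2 difference of each of the 19 Pax probe sets (rows) in the 4 comparisons of groups (panels), as a point with the 95% interval of the fit, red where the adjusted p was under 0.05. Red points are Pax3 1430335_a_at in the FVB/N mutant comparison (-0.41) and in the comparison of mutants (0.36), and Pax7 1452510_at in the comparison of mutants (0.43).

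Pax3, on chromosome 1, was lowest in the FVB mutants at all 3 of its probe sets. At probe set 1430335_a_at the FVB mutants read 8.10, 8.35, 8.26 and 8.31, and the FVB wild types 8.64, 8.49, 8.93 and 8.61. The groups did not overlap, as was the case for 6.83% of all probe sets in this comparison. The BALB mutants read 8.66, 8.62, 8.67 and 8.50 and the BALB wild types 8.43, 8.68, 8.56 and 8.38. These overlapped each other and lay above every FVB mutant. In FVB/N the mutant level was 1.33-fold lower, a log2 difference of -0.41 (SE 0.09, adjusted p = 0.0458). In BALB/cCrl the difference was 0.10, with a 95% interval of -0.09 to 0.28 (adjusted p = 0.769). The difference between these allele effects was 0.51 (SE 0.13), with an unadjusted p of 0.000708 and an adjusted p of 0.177, so it did not pass the test. BALB mutants were 1.28-fold above FVB mutants (log2 difference 0.36, SE 0.09, adjusted p = 0.0122) without overlap, as was the case for 13.2% of all probe sets. Between the wild types the difference was -0.15, with an interval of -0.34 to 0.03 (adjusted p = 0.395).

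The call in FVB/N lay close to the threshold. It was kept in 9 of 26 alternative settings, with log2 differences from -0.63 to -0.32 and adjusted p from 0.0327 to 0.475. It was lost without FVB wild type 1 (0.0648), 2 (0.0563), 3 (0.148) or 4 (0.0997), without FVB mutant 1 (0.0776), 3 (0.0814) or 4 (0.0736), without BALB mutant 1 (0.0577) or 3 (0.0597), and without BALB wild type 1 (0.0510) or 4 (0.0536), all adjusted p. Without FVB mutants 3 and 4 together the log2 difference was -0.44 and the adjusted p 0.217. The call between the mutants of the strains was kept in 25 of 25 settings, and without FVB mutants 3 and 4 it stood at 0.39 (adjusted p = 0.0382).

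The other Pax3 probe sets read as follows. Probe set 1420389_at read 8.43, 8.77, 8.77 and 8.63 in FVB mutants and 8.88, 8.81, 9.29 and 8.98 in FVB wild types, again without overlap. The log2 difference was -0.34 (SE 0.11, adjusted p = 0.191), which did not pass. BALB mutants stood 0.30 above FVB mutants (adjusted p = 0.0914), a difference that passed when BALB mutant 4, the lowest of its group, was left out (0.38, adjusted p = 0.0311). Probe set 1441743_at read 8.87, 8.75, 8.66 and 8.71 in FVB mutants and 9.09, 8.81, 8.92 and 8.93 in FVB wild types. These groups overlapped, and the difference of -0.19 (SE 0.07, adjusted p = 0.258) did not pass. Between BALB mutants and BALB wild types the differences were 0.11 at 1420389_at and -0.03 at 1441743_at, neither past the test.

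In whole embryos, fewer cells that express a gene and less RNA per cell cannot be told apart. The tissues in which Pax3 is known to be active were read through markers. The mean level of 3 of 3 paraxial mesoderm markers (Meox1, Tcf15 and Tbx6) was 9.42 to 9.67 in FVB wild types and 8.79 to 9.66 in FVB mutants, against 9.22 to 9.43 in BALB wild types and 9.13 to 9.47 in BALB mutants. FVB mutants 1 to 4 had mean marker levels of 9.66, 9.22, 9.47 and 8.79. At Pax3 1430335_a_at they read 8.10, 8.35, 8.26 and 8.31. The mean of 3 of 3 neural markers (Sox1, Sox2 and Nes) was 9.77 to 9.92 in FVB wild types and 9.48 to 9.95 in FVB mutants, again lowest in FVB mutant 4. All 6 markers read at least 6.94 on every array, and none was called in the FVB/N mutant comparison. There Tcf15 differed by -0.41 (adjusted p = 0.190), Meox1 by -0.33 (adjusted p = 0.395) and Tbx6 by -0.03 (adjusted p = 0.977). The neural markers differed by -0.11 (Sox1), -0.17 (Sox2) and 0.04 (Nes). Between the mutants of the strains none of these 6 markers was called. There Meox1 differed by -0.12, Tcf15 by -0.01, Tbx6 by 0.24, Sox1 by 0.02, Sox2 by 0.04 and Nes by 0.10. The 3 of 3 primitive erythroid markers were called higher in BALB mutants than in FVB mutants. They were Hbb-y (0.29, adjusted p = 0.0341), Hbb-bh1 (0.30, adjusted p = 0.0333) and Hba-x (0.49, adjusted p = 0.0302). The part of tissue makeup in the Pax3 and Pax7 differences was not tested.

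**Figure D2:**
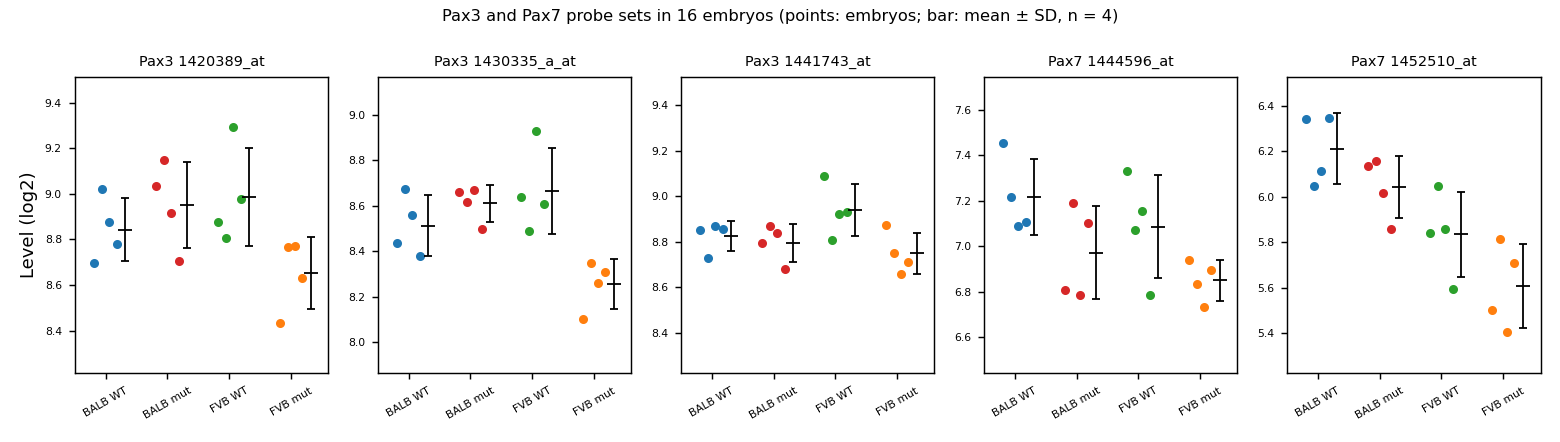
Log2 level (y axis, a span of 1.3 in each panel) of the 3 Pax3 and 2 Pax7 probe sets in each of the 16 embryos, by group (x axis; WT, wild type; mut, mutant), with the mean ± SD of 4 embryos beside the points. The 4 FVB mutants sit below the 4 FVB wild types at Pax3 1420389_at and 1430335_a_at, and both FVB groups sit low at Pax7 1452510_at.

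Pax7, on chromosome 4, is the closest relative of Pax3 and shares much of its expression in the dorsal neural tube, neural crest and muscle progenitors. At probe set 1452510_at the BALB mutants read 6.13, 6.16, 6.02 and 5.86 and the FVB mutants 5.50, 5.82, 5.41 and 5.71. The groups did not overlap, and BALB mutants were 1.35-fold higher (log2 difference 0.43, SE 0.11, adjusted p = 0.0154). The wild types were ordered the same way, with 6.34, 6.05, 6.11 and 6.34 in BALB/cCrl and 5.84, 6.05, 5.86 and 5.60 in FVB/N. There the lowest BALB and the highest FVB embryo both read 6.05, and the log2 difference of 0.38 (SE 0.11, adjusted p = 0.0510) just missed the threshold. The interaction was 0.06 with an interval of -0.28 to 0.39 (adjusted p = 0.959), so a strain difference that depends on the allele was not detected. Mutants stood below wild types by -0.17 in BALB/cCrl (adjusted p = 0.665) and by -0.23 in FVB/N (adjusted p = 0.429), neither past the test. In the authors' gcRMA table of the FVB/N pair this probe set held a single value, 4.02, on all 8 arrays, so it gave no difference there. The readings of this probe set lay within the range of Y-linked genes.

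The call between the mutants was kept in 22 of 25 settings and was lost without FVB mutant 3 (adjusted p = 0.0528), without BALB mutant 1 (0.0541) and without FVB mutants 3 and 4 together (0.38, adjusted p = 0.0886). The wild type difference was called in 10 of 26 settings, with log2 differences from 0.16 to 0.45 and adjusted p from 0.0205 to 0.607. The smallest difference came from the gcRMA table, with 4.21 in BALB/cCrl against 4.05 in FVB/N. Leaving out 1 array made it a call for FVB wild type 2 (0.0295), FVB mutant 2 (0.0443), FVB mutant 3 (0.0432), BALB mutant 4 (0.0451) and BALB wild type 2 (0.0405).

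The brighter Pax7 probe set, 1444596_at, was not called between the strains. It read 7.45, 7.22, 7.09 and 7.11 in BALB wild types, 6.81, 7.19, 6.79 and 7.10 in BALB mutants, 7.33, 7.07, 7.16 and 6.79 in FVB wild types, and 6.94, 6.83, 6.73 and 6.90 in FVB mutants. The groups overlapped in each of the 4 comparisons of groups. Every BALB wild type lay above every FVB mutant, a pair that was not compared. BALB mutants stood 0.12 above FVB mutants, with an interval of -0.12 to 0.36 (adjusted p = 0.617). Mutants stood below wild types by -0.24 in each strain (adjusted p = 0.522 in BALB/cCrl and 0.429 in FVB/N). The mean allele effect was -0.24 (SE 0.08, unadjusted p = 0.00881, adjusted p = 0.203), which did not pass.

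**Figure D3:**
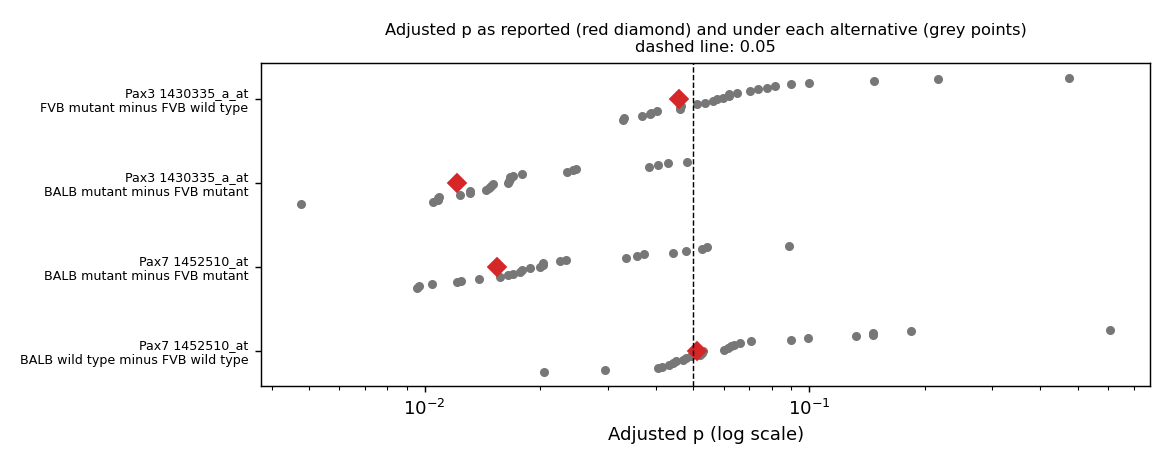
Adjusted p (x axis, log scale) of 4 Pax3 and Pax7 differences (rows) as reported (red diamond) and under each of 25 or 26 alternative settings (grey points), with a dashed line at 0.05. The Pax3 difference between the mutants of the strains stays left of the line in all settings. The Pax3 difference in FVB/N and both Pax7 differences lie on both sides of it. The Pax7 difference between mutants is left of it in 22 of 25 settings.

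Pax6, on chromosome 2, drives eye and forebrain development and patterns the ventral neural tube. No Pax6 probe set was called in any of the 6 comparisons. The 2 bright probe sets read lower on average in mutants of both strains, within the spread of embryos. At 1419271_at the BALB wild types read 9.46, 9.39, 9.34 and 9.44 and the BALB mutants 8.93, 9.53, 9.09 and 9.18, so 3 of 4 mutants lay below every wild type and 1 above. The FVB wild types read 9.41, 9.38, 9.62 and 9.54 and the FVB mutants 9.43, 9.18, 9.63 and 9.11, which overlapped. The log2 differences were -0.22 in BALB/cCrl (SE 0.11, adjusted p = 0.549) and -0.15 in FVB/N (adjusted p = 0.632). At 1452526_a_at they were -0.16 (adjusted p = 0.714) and -0.19 (adjusted p = 0.546), the latter -0.36 without FVB mutants 3 and 4 (adjusted p = 0.374). The mutant groups spread more widely than the wild types at 1419271_at, with an SD of 0.26 against 0.05 in BALB/cCrl and 0.24 against 0.11 in FVB/N. This difference in spread was not tested.

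Of the dimmer Pax6 probe sets, 1425960_s_at had the largest difference in FVB/N. It read 6.84, 6.66, 6.63 and 6.69 in FVB wild types and 6.11, 6.40, 6.79 and 5.81 in FVB mutants, of which FVB mutant 3 lay within the wild type range. The difference was -0.43 (SE 0.15, adjusted p = 0.218), and without FVB mutant 3 it was -0.60 and passed (adjusted p = 0.0442). BALB wild types stood below FVB wild types without overlap by -0.30 (adjusted p = 0.286), as 15% of all probe sets did not overlap in that comparison. It passed with only these 2 groups in the fit (adjusted p = 0.0256). In the gcRMA tables the differences were larger without passing, at -0.89 in FVB/N (adjusted p = 0.812) and -0.62 between wild types (adjusted p = 0.151). Probe set 1456342_at moved the other way, in BALB/cCrl. It read 5.15, 5.36, 5.08 and 5.12 in BALB mutants and 4.89, 4.83, 4.97 and 4.92 in BALB wild types. These did not overlap, against 5.12% of all probe sets, and the difference of 0.27 (SE 0.08, unadjusted p = 0.00200, adjusted p = 0.330) did not pass and was 0.015 in the gcRMA table. FVB embryos of both groups read 4.84 to 5.01 there. The fifth Pax6 probe set, 1437816_at, read between 5.65 and 6.09 and differed by at most 0.09 between any groups compared.

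Pax1 (chromosome 2) and Pax9 (chromosome 12) act together in the sclerotome and pharyngeal pouches. No probe set of either was called. Pax1 1449359_at read between 6.16 and 6.94, with group means from 6.41 ± 0.23 (SD, n = 4) in BALB wild types to 6.67 ± 0.21 (n = 4) in BALB mutants. All groups overlapped there, and the BALB/cCrl difference was 0.25 with an interval of -0.03 to 0.54 (adjusted p = 0.575). Pax1 1443476_at read 5.61, 5.93, 5.94 and 5.87 in FVB mutants and 5.51, 5.59, 5.62 and 5.59 in FVB wild types, a difference of 0.26 (adjusted p = 0.216), whereas the gcRMA table of that pair held a single value for it. The difference at the other Pax1 probe set was -0.13 there, of opposite sign.

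Pax9 1442229_at read 6.21, 5.54, 6.08 and 5.81 in FVB mutants and 6.44, 6.05, 6.53 and 6.29 in FVB wild types. The lowest wild type lay within the mutant range, and the difference of -0.42 (SE 0.14, adjusted p = 0.182) did not pass. It was -0.46 without FVB mutants 3 and 4 (adjusted p = 0.459). The other Pax9 probe sets gave -0.07 (1421246_at) and 0.05 (1421247_at) in the same comparison, so the 3 probe sets did not share a direction. Probe set 1421246_at stood 0.21 higher in BALB than in FVB mutants (adjusted p = 0.150), which passed only when BALB mutant 2 was left out (0.28, adjusted p = 0.0457).

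Pax5 (chromosome 4) and Pax8 (chromosome 2) belong with Pax2 (chromosome 19) to the group active at the midbrain-hindbrain boundary. Pax5 also specifies B lymphocytes, and Pax8 acts in the thyroid and kidney. The Pax5 probe sets read 4.76 to 5.27 (1421765_at) and 5.71 to 6.16 (1454401_at), with no group difference beyond 0.16. Pax5 1421765_at, without FVB mutants 3 and 4, stood 0.31 higher in BALB than in FVB mutants, where all embryos gave 0.16, and neither value passed (adjusted p = 0.0766 and 0.374).

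Pax8 1418208_at read 6.65, 7.04, 6.97 and 6.98 in BALB mutants and 7.24, 7.06, 7.29 and 7.15 in FVB mutants. BALB mutants lay below FVB mutants without overlap, by -0.27 (SE 0.10, adjusted p = 0.0755), which did not pass. The wild types gave -0.20 (adjusted p = 0.266), with BALB/cCrl at 7.04, 7.04, 7.10 and 6.93 and FVB/N at 7.43, 7.15, 7.29 and 7.05. The second Pax8 probe set, 1446561_at, was the dimmest Pax reading, from 4.04 to 4.56. There BALB mutants stood below FVB mutants by -0.13 (adjusted p = 0.369) and BALB wild types above FVB wild types by 0.21 without overlap (adjusted p = 0.145). It read 4.43, 4.23, 4.40 and 4.56 in FVB mutants and 4.19, 4.04, 4.11 and 4.18 in FVB wild types, without overlap (0.28, SE 0.08, adjusted p = 0.128). In the authors' gcRMA table of that pair this Pax8 probe set held a single value on all 8 arrays, and in the wild type pair 1418208_at differed by -0.47 (adjusted p = 0.268). With FVB mutants 3 and 4 left out, the mutant difference at 1418208_at was -0.24 (adjusted p = 0.232) and the FVB/N difference at 1446561_at 0.20 (adjusted p = 0.595).

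**Figure D4:**
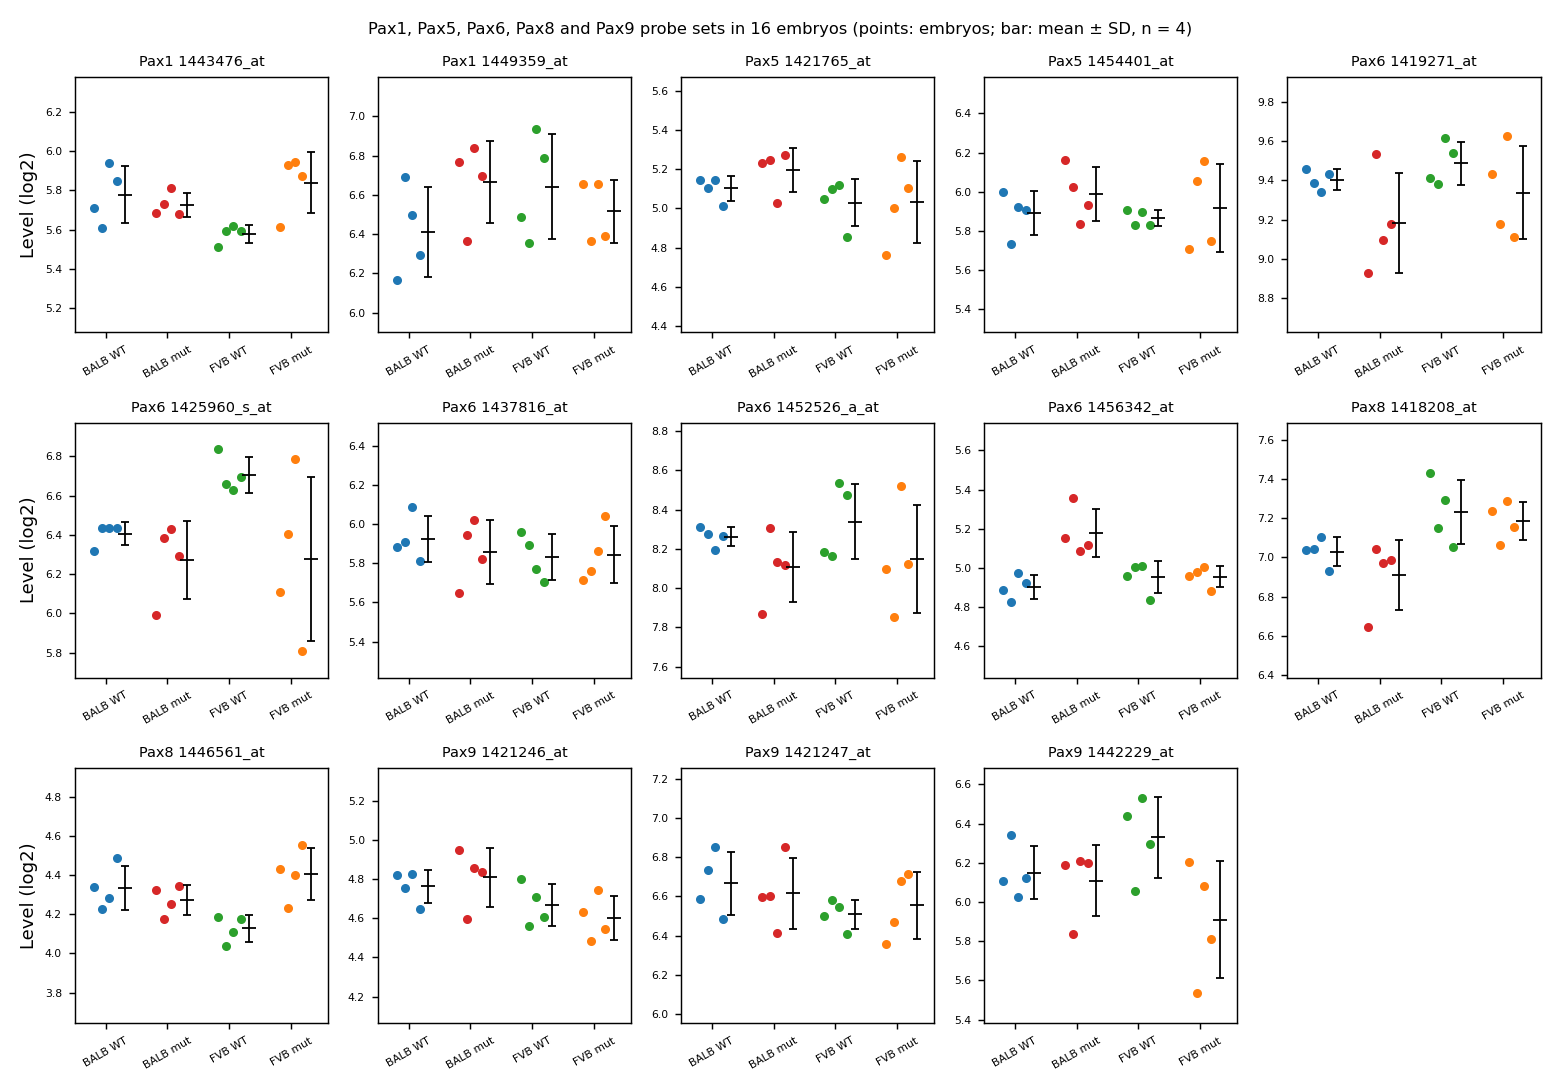
Log2 level (y axis, a span of 1.3 in each panel) of the Pax1, Pax5, Pax6, Pax8 and Pax9 probe sets in each of the 16 embryos, by group (x axis; WT, wild type; mut, mutant), with the mean ± SD of 4 embryos beside the points. Embryos of a group spread most for Pax6 1425960_s_at in FVB mutants, from 5.81 to 6.79, and no panel holds a difference past the test.

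Probe sets of the same gene were compared after the group means had been taken out, to see whether they tracked the same embryos. Of 20 such pairs over 16 embryos, 2 passed a permutation test within groups (two-sided, 100000 permutations, adjusted over the 20 pairs). Pax3 1420389_at and 1430335_a_at had a Pearson r of 0.851 (p = 0.0010, adjusted p = 0.020) and a Spearman rho of 0.768 (p = 0.00312, adjusted p = 0.0325). Pax6 1419271_at and 1452526_a_at had an r of 0.827 (p = 0.0028, adjusted p = 0.028) and a rho of 0.80 (p = 0.00325, adjusted p = 0.0325). Without the 2 embryos farthest from the median, r was 0.779 and 0.726. Pax3 1441743_at had an r of -0.08 and -0.07 with the other Pax3 probe sets. The Pax7 pair had an r of 0.293 (permutation p = 0.325, adjusted p = 0.722).

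Genes whose level over the 16 embryos was most like that of a called Pax probe set were listed as a description. For Pax3 1430335_a_at they were Eif3c (r = 0.886), a translation initiation subunit, Chd4 (r = 0.875), the ATPase of the NuRD chromatin complex, and Nrip1 (r = 0.848), a nuclear receptor corepressor. For Pax7 1452510_at they were Spring1 (r = 0.882), Acad9 (r = 0.880), which assembles mitochondrial complex I, and Ccdc59 (r = 0.879). These r values include the differences between groups and were the highest among all annotated probe sets.

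Genes known to act with Pax genes were read from 5 lists, with 18 of 21 upstream signals and factors measured, 16 of 16 targets and partners of Pax3 and Pax7, 13 of 14 of Pax1 and Pax9 (sclerotome and pharynx), 19 of 20 of Pax6 and 22 of 22 of Pax2, Pax5 and Pax8. A gene counted as called if any of its probe sets was, and the share of all 18193 genes called this way is given beside each count. Between BALB mutants and BALB wild types, and in the interaction, 0 genes of any list were called, against 0.044% and 0.143%. Between FVB mutants and FVB wild types, 1 of 16 measured genes of the Pax3 and Pax7 list was lower (0.874% of all genes were) and 1 of 19 of the Pax6 list was higher (0.225%). The first was Fgfr4, a growth factor receptor gene of muscle progenitors and a known Pax3 target, at 6.83 ± 0.23 (SD, n = 4) in FVB wild types and 6.35 ± 0.16 (n = 4) in FVB mutants (1418596_at, 1.39-fold lower, log2 difference -0.47, adjusted p = 0.0458). The other 4 Fgfr4 probe sets differed by -0.19 to 0.21 and did not pass. The second was Mab21l2, an eye development gene, at 8.49 ± 0.14 (n = 4) and 8.97 ± 0.20 (n = 4), which was 1.39-fold higher in FVB mutants (log2 difference 0.48, adjusted p = 0.0480). In BALB/cCrl the differences were -0.07 and 0.34, neither past the test. Without FVB mutants 3 and 4, neither gene was called in FVB/N (adjusted p = 0.272 for Fgfr4 and 0.0889 for Mab21l2). Leaving out 1 array lost the Fgfr4 call for all but FVB wild type 2, FVB mutant 1, BALB mutants 2 and 4 and BALB wild type 3, with adjusted p up to 0.142. It lost the Mab21l2 call for all but FVB mutant 3, BALB mutants 2 and 4 and BALB wild types 1 and 4, with adjusted p up to 0.135. The other members of these lists, Mitf, Ret, Sox10, Myf5, Foxd3 and Lbx1 of neural crest and muscle and Six3, Rax, Lhx2 and Otx2 of eye and forebrain among them, did not pass.

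The mean of both allele effects called 3 list genes. Met, the receptor gene for muscle precursor migration and a known Pax3 target, was 1.35-fold lower in mutants (1434447_at, log2 difference -0.44, SE 0.07, adjusted p = 0.0081). It read 7.91 ± 0.12 in BALB wild types and 7.47 ± 0.09 in BALB mutants, and 8.09 ± 0.12 in FVB wild types and 7.66 ± 0.25 in FVB mutants (SD, n = 4 each). Met lies on chromosome 6, as do Cecr2 and the list genes Mitf and Ret, which were not called. The distance of Met from Cecr2 was not examined here. The second Met probe set differed by -0.15 without passing. Eya1, a cofactor gene of the upstream list known for ear and kidney development, was 1.28-fold lower at 1 of 3 probe sets (1457424_at, -0.35, SE 0.07, adjusted p = 0.0232), and lost its call without FVB wild type 1, BALB mutant 3 or BALB wild type 4, with adjusted p up to 0.0648. Mab21l2 was 1.32-fold higher (0.41, SE 0.08, adjusted p = 0.0175). Counts were 1 of 16 lower in the Pax3 and Pax7 list, 1 of 18 lower in the upstream list (0.616% of all genes were lower) and 1 of 19 higher in the Pax6 list (0.154%). Without FVB mutants 3 and 4 the counts were the same.

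Between the strains more list genes were called, as were more genes in all. In wild types, 4 of 13 measured genes of the sclerotome list were lower in BALB/cCrl, against 6.63% of all genes. At each gene's brightest probe set, the median over the list was -0.31 with 12 of 13 genes below 0. Over all probe sets the median was 0.0068 and 47.8% lay below 0. The list was written with earlier results of these data known, so these values are a description. Of the heart markers, the muscle genes Myl7 (0.37, adjusted p = 0.0086) and Tnnt2 (0.40, adjusted p = 0.0392) were higher in BALB wild types. The heart factor gene Nkx2-5 was not called (0.01). The mean of these 3 of 3 heart markers was 10.7 to 11.0 in BALB wild types and 10.3 to 10.8 in FVB wild types. The paraxial mesoderm markers did not share a direction, with Tcf15 at -0.38 (adjusted p = 0.103) and Tbx6 at 0.29 (adjusted p = 0.601). The remaining marker of that tissue, Meox1, is itself in the sclerotome list. The neural markers differed by -0.04 (Sox1), 0.04 (Sox2) and 0.06 (Nes), with no call. The part of tissue makeup in the sclerotome list was not tested. The called genes were the somite factor genes Meox2 (2.19-fold, -1.13, adjusted p = 0.00150) and Meox1 (1.53-fold, -0.61, adjusted p = 0.0164), the mesenchyme factor gene Twist1 (1.31-fold, -0.39, adjusted p = 0.0141) and the cartilage factor gene Sox9 (1.22-fold at 1 of 3 probe sets, -0.29, adjusted p = 0.0451). Their partners Pax1 and Pax9 themselves differed between wild types by -0.23 to 0.20, with no call. Meox1 and Twist1 each lost the call without BALB wild type 1, Meox1 also without FVB wild type 3 (adjusted p up to 0.0715) and Twist1 without FVB wild type 2 (up to 0.0602). Sox9 was called in 12 of 26 settings (adjusted p up to 0.385), and lost its call without FVB wild type 1, 2 or 3, FVB mutant 2, BALB mutant 1, 3 or 4, or BALB wild type 1, 3 or 4. In the Pax2, Pax5 and Pax8 list the kidney and intermediate mesoderm factor gene Osr1 was higher in BALB/cCrl, 2.34-fold in wild types (1.23, adjusted p = 1.34e-06) and 2.87-fold in mutants (1.52, adjusted p = 7.07e-08), 1 of 22 genes higher in wild types against 4.51% and 2 of 22 in mutants against 7.6%. The second was Gata3 (1.31-fold, 0.39, adjusted p = 0.0150), lost without FVB mutant 2 or BALB mutant 3 (adjusted p up to 0.0667). The midbrain-hindbrain gene Cnpy1 was the 1 of 22 lower in BALB mutants, against 10% of all genes. It was called at 1 of 3 probe sets (1456127_at, -0.40, adjusted p = 0.00678). The other Cnpy1 probe sets gave -0.01 (adjusted p = 0.988) and -0.23 (adjusted p = 0.306) between mutants. Probe set 1456127_at read 5.16 to 5.37 in BALB mutants and 5.46 to 5.89 in FVB mutants, within the range of Y-linked genes. When FVB mutants 3 and 4 were left out, the called mutant difference was 1.49 for Osr1 (adjusted p = 1.04e-05). It was 0.45 for Gata3 (adjusted p = 0.0267) and -0.51 for Cnpy1 1456127_at (adjusted p = 0.00386).

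In the Pax6 list the lens factor gene Maf was lower in BALB/cCrl in both genotypes at 1 of 6 probe sets, by -1.02 in wild types (adjusted p = 9.78e-07) and -0.47 in mutants (adjusted p = 0.00494). It was the 1 of 19 genes lower in each, against 6.63% and 10% of all genes. Nkx6-1, a ventral neural tube factor gene and the 1 of 19 higher between mutants against 7.6% of all genes, was 1.60-fold higher in BALB than in FVB mutants (0.68, adjusted p = 0.0344), a call lost without FVB mutant 2 or 4 or BALB mutant 1 or 3 (adjusted p up to 0.116). With both of FVB mutants 3 and 4 left out, Nkx6-1 stood at 0.88 (adjusted p = 0.0292) and Maf at -0.46 (adjusted p = 0.0182). In the Pax3 and Pax7 list 3 of 16 genes were lower in BALB/cCrl wild types, against 6.63% of all genes. Snai2, a neural crest gene, was lower at both probe sets (-0.37 at each, adjusted p = 0.0152 and 0.00533). Dmrt2, a dermomyotome gene and known Pax3 target, was 1.62-fold lower (-0.69, adjusted p = 0.0356), a call lost without FVB wild type 3 or 4 or BALB wild type 1, 3 or 4 (adjusted p up to 0.134) and without FVB mutants 3 and 4 (0.0502). Fgfr4 1418596_at was 1.28-fold lower (-0.35, adjusted p = 0.0439), a call lost without FVB wild type 1, 3 or 4, BALB mutant 1 or 3, or any of the 4 BALB wild types (adjusted p up to 0.172). Of the upstream list, Meis2 was the 1 of 18 genes lower, against 6.63% of all genes (1 of 4 probe sets, -0.27, adjusted p = 0.0369), lost without FVB wild type 3 or 4 or BALB wild type 1 or 3 (adjusted p up to 0.138).

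Between mutants, 2 of 16 genes of the Pax3 and Pax7 list were lower in BALB/cCrl, against 10% of all genes, and 1 was higher, against 7.6%. Snai2 stood at -0.28 (1447643_x_at, adjusted p = 0.0253), Msx2, a dorsal neural tube factor gene, at -0.27 (1 of 2 probe sets, adjusted p = 0.0186) and Hes1, a Notch target gene, at 0.23 (adjusted p = 0.0283). Of the sclerotome list 2 of 13 were lower, against the same 10%, Meox2 at 1 of 2 probe sets (-0.76, adjusted p = 0.0258) and Twist1 (-0.30, adjusted p = 0.0441). Without FVB mutants 3 and 4 none of these 5 genes was called. Each also lost its call without 1 array. For Snai2 these were FVB mutants 2 and 3 and BALB mutants 2 and 3 (adjusted p up to 0.0966), for Msx2 FVB mutants 2 and 3 and BALB mutants 1 and 3 (up to 0.0736), and for Hes1 FVB mutants 1, 2 and 4 and BALB mutants 1 and 3 (up to 0.109). For Meox2 they were FVB mutants 1 and 3 and BALB mutants 2 and 4 (up to 0.0858). Twist1 kept its call only without FVB wild type 1, FVB mutant 3, BALB mutant 1 or 4 or BALB wild type 1 (up to 0.135 without the others).

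Leaving out FVB mutants 3 and 4 also moved counts in other lists between the strains. Between wild types, the list of Pax2, Pax5 and Pax8 then held 2 genes higher and 2 lower in BALB/cCrl, where the whole set of embryos gave 1 and 0. Between mutants, the Pax6 list held 1 gene higher and 2 lower, where it had 1 of each, and the upstream list 1 lower, where it had 0.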

How the data were processed

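Levels are the authors' log2 values per probe set, deposited as a single table of all 16 arrays, and they were taken as normalised across arrays because the arrays had like medians. Which method made them is not given in the sources used here. Per the submitters' processing notes RMA and GCRMA were used, without versions or roles. The authors also deposited gcRMA tables for 3 pairs of groups, which served as an alternative. The scale is per probe set, so levels are not compared between genes. Arrays carry no read depth, and 4 arrays per group limit the precision. Symbols came from the platform annotation, chromosomes from RefSeq through Entrez identifiers, and no genome build was used for positions.

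All arrays were fitted in limma 3.58.1 (R 4.3.3, with data.table, version 1.17.8), with 1 mean per group and an intensity trend in the empirical Bayes step. Tests were two-sided and p-values were adjusted by Benjamini and Hochberg over 45037 probe sets in each of 6 comparisons. The fit was tested on simulated data. Errors are SD between embryos or SE of the fit. Python 3.11.15 with pandas 2.3.3, numpy 2.4.6, scipy 1.17.1 and matplotlib 3.10.9 made the correlations and figures. Embryos are separate animals, but shared litters are unknown.

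Members, lists and named genes (all Pax probe sets, Cecr2, the 3 genes most like each called Pax gene, and up to 4 called genes per list and comparison) were chosen with earlier results of these data known. Alternatives were quantile normalisation, median centring, the gcRMA tables, leaving out probe sets with a mean level under 5, no intensity trend, array weights, only the 2 groups compared, a replicate block and leaving out each array. Leaving out FVB mutants 3 and 4, or BALB wild type 1 and BALB mutant 4, was added after seeing the data.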

Additional observations from a re-analysis of the deposited data

Results flagged for a closer look

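In 4 of 76 groups of 4 embryos (19 Pax probe sets in 4 groups), 1 embryo lay farther from its nearest neighbour, relative to the range of the group, than Dixon's critical value at the 95% level. Chance gives about 1 in 20 groups, close to this number, and all 4 embryos were the lowest of their group. For Pax3 1441743_at, BALB wild type 2 read 8.73 where the others read 8.85 to 8.87. For Pax5 1421765_at, BALB mutant 3 read 5.03 against 5.23 to 5.27. For Pax6 1425960_s_at, BALB wild type 1 read 6.32 against 6.43 to 6.44. For Pax9 1442229_at, BALB mutant 2 read 5.84 against 6.19 to 6.21. They were 4 different embryos, none of them behind a called difference of its probe set.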

How the results depend on the processing

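Between BALB mutants and BALB wild types, in the interaction and in the mean allele effect, 0 Pax probe sets were called in every alternative, with each array left out included. Between FVB mutants and FVB wild types, the count of 1 became 0 under quantile normalisation, the gcRMA table, no intensity trend, array weights, only the 2 groups compared, and without FVB mutants 3 and 4, and it ranged from 0 to 1 with each array left out. Between the wild types, the count of 0 became 1 with dim probe sets left out, no intensity trend, array weights, and without FVB mutants 3 and 4, and 2 with only the 2 groups compared (Pax7 1452510_at and Pax6 1425960_s_at). It ranged from 0 to 1 with each array left out. Between the mutants, the count of 2 became 1 without FVB mutants 3 and 4 and ranged from 1 to 3 with each array left out. The causes were not tested. Of 2851 values of single Pax probe sets under an alternative, 2704 kept direction and side of the threshold, 111 changed sign or became 0 with no call in either setting, 20 lost a call, 16 gained a call, and 0 called values changed sign.

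Embryos with the same replicate number had r from -0.15 to 0.17 over the pairs of groups, after the group means had been taken out. Embryos of different numbers were not compared, so these r values cannot decide whether the numbers pair embryos. With the replicate number as a block, the Pax counts were 0, 1, 0, 2, 0 and 0, as without it, and the adjusted p of Pax3 1430335_a_at in FVB/N was 0.0386. Over all probe sets the block moved the count from 34 to 89 in the interaction. Counts over all probe sets ranged widely between settings, from 3 to 115 (9 as reported) in BALB/cCrl, 13 to 471 (268) in FVB/N, 1528 to 4260 (3036) between wild types, 3245 to 5016 (4861) between mutants, and 70 to 759 (205) in the mean effect. In the interaction the share called ranged from 0.0311% to 0.304% (0.0755% as reported). The gcRMA tables held a single value on all 8 arrays for 3, 7 and 5 of the 19 Pax probe sets (the BALB/cCrl, FVB/N and wild type pairs), Pax7 1452510_at in the FVB/N pair among them, and those tables gave no value for the pair of mutants, the interaction or the mean effect. The setting with only the 2 groups compared gave none for the interaction and the mean effect.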
